A study of Mus musculus with 30 samples.

Results

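In mice without the mitochondrial protease ClpP, the liver, skeletal muscle, brain and heart were each compared with the same tissue of wild type littermates, and the knockout effects of these 4 tissues were averaged for every gene. The series holds 30 Affymetrix expression arrays of 5 tissues, of which 24 are of these 4 tissues and enter the mean, and the 6 testis arrays were kept apart. Each tissue had 3 knockout and 3 wild type arrays, all on a C57BL/6 background, and the labels give the genotype as ClpP KO or WT, with no Cre driver or cell type. They give neither age nor sex. The labels do not say whether the 3 arrays of a group came from separate animals, or whether one animal gave several tissues, so the p-values measure the spread between these samples, which may be technical. For each of 17097 genes the mean of the 4 log2 differences, knockout minus wild type, was tested. The genes described here are the 541 that passed this test and had the same sign in all 4 tissues: 201 were higher and 340 were lower in the knockout.

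ClpP is the proteolytic chamber of a protein-degrading complex in the mitochondrial matrix, where a partner ATPase unfolds proteins and feeds them in. Cells answer interferons and some kinds of nucleic acid in the cytosol by switching on interferon-stimulated genes: sensors such as RIG-I and MDA5 or secreted interferon lead to activation of IRF and STAT transcription factors, which bind interferon-stimulated response elements in promoters. The products include IFIT proteins and OAS enzymes that act on foreign RNA, GTPases that attack pathogen vacuoles, and the machinery that loads peptides on MHC class I molecules. A separate programme, the integrated stress response, raises ATF4 and its targets in amino acid synthesis and transport, and in muscle and heart it is known to follow mitochondrial faults.

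The targeted gene was examined first. Clpp gave log2 levels of 3.15 to 3.68 on the knockout liver arrays against 8.70 to 8.77 on the wild type ones, 3.41 to 3.99 against 8.25 to 8.61 in muscle, at most 3.21 against 7.79 to 8.15 in brain, and 3.48 to 3.71 against 9.13 to 9.21 in heart. No knockout array came near a wild type array in any tissue, and the knockout levels lay close to the median probe set of an array, which was between 3.24 and 3.38. The mean difference was -5.16 ± 0.07 (SE, n = 3 per group), which is at least 35.7-fold lower since the knockout level is near background, with a limma adjusted p of 5.07e-21.

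Of the 17097 genes, 723 (4.23%) were called in the mean effect by limma at a Benjamini-Hochberg adjusted p below 0.05, 273 higher (1.6%) and 450 lower (2.63%). Among them 541 had 1 sign in all 4 tissues, the 201 higher genes making up 1.18% and the 340 lower genes 1.99% of all genes tested. Sharing a sign was common: 3253 of all genes (19.0%) did so, 1582 upward and 1671 downward. The sizes differed between the directions. Among the 201 higher genes 23 rose by at least 1 on the log2 scale and 75 by at least 0.5, while among the 340 lower genes Clpp was the only one past 1 and 15 in all were past 0.5. Medians of the mean change were 0.39 for the higher and -0.31 for the lower genes, against 0.00 over all genes. Just inside the threshold lay Vmn1r65 at 0.19 and Timm29 at -0.18, and just outside it Zbtb25 at 0.19 and Bcas3 at -0.25. Both numbers depended on the settings: after quantile normalization 254 genes were higher and 230 lower (52.5% of calls higher, against 37.8% with the deposited values), with 195 higher and 157 lower among genes of 1 sign. Leaving out muscle knockout array 2, brain knockout array 2, brain knockout array 3 or heart wild type array 2 brought the count of lower genes to 295, 292, 264 and 271. Leaving out brain knockout array 3 also brought the higher genes to 181, and leaving out heart knockout array 1 brought them to 409. The lower genes of 1 sign came to 211 without brain knockout array 3 and 213 without heart wild type array 2. When the 4 tissues were first averaged per genotype and replicate number, so that 3 values stood against 3, 55 genes were called higher and 14 lower.

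Taken alone within the same fit, liver had 403 calls (2.36%; 0.901% higher and 1.46% lower), muscle 242 (1.42%; 0.784% and 0.632%), brain 63 (0.368%; 0.228% and 0.14%) and heart 377 (2.21%; 1.08% and 1.12%). In every one of the 4 tissues 13 of 17097 genes were called (0.076%), and all but Clpp were higher in the knockout. The 12 rises were Ifit1, Ifit3, Oas1g, Rsad2, Usp18, Irf7, Rtp4, Xaf1, Trim30a, Gbp3, Rnf213 and the predicted gene Gm9706. Apart from Gm9706 these are known interferon-stimulated genes; the probe set of Gm9706 is of a design class that can match several transcripts, so its level may not be that gene's alone. For 28 higher genes no knockout array overlapped a wild type array in any of the 4 tissues, 23 of them on the 4 interferon lists described below, and for 12 lower genes the same held downward. These 40 genes are 0.234% of all genes tested.

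Promoters of these genes are shown because they were called in each tissue and move together. RefSeq (assembly GRCm38.p6) gave a promoter for 9 of the 12, and 6 of the 9 held the core of the interferon-stimulated response element, GAAA followed after any 2 bases by GAAA, on either strand within the bases before the start of the gene; overlapping matches were counted separately. Each line gives 60 bases of the gene's strand, 5′ to 3′, with the matching bases in capitals; capitals that read TTTC, any 2 bases and TTTC are the same core on the opposite strand.
Ifit1 (chr19:34640775-34640834, + strand): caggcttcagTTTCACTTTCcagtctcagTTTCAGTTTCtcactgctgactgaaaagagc
Ifit3 (chr19:34583363-34583422, + strand): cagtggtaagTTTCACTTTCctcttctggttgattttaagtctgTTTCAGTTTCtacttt
Rsad2 (chr12:26456523-26456582, - strand): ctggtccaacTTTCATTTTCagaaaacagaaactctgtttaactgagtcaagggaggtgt
Gbp3 (chr3:142559984-142560043, + strand): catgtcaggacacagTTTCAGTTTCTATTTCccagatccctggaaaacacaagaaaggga
Trim30a (chr7:104465194-104465253, - strand): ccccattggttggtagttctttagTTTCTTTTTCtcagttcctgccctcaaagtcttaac
Oas1g (chr5:120887614-120887673, - strand): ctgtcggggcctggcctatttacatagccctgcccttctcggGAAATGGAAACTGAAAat

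Ifit1 and Ifit3 each hold 2 separate copies of the core, lying 104 and 85 bases before the start in Ifit1 and 156 and 122 bases before it in Ifit3. In Gbp3 and Oas1g 2 overlapping copies form an uninterrupted run, which ends close to the start in Oas1g. Over the whole set, the core was found in 28 of the 158 higher genes with a promoter (17.7%), in 8 of 275 lower genes (2.91%), in 421 of 13605 measured genes (3.09%) and in 2.98% of all 32851 promoters in the table. Higher genes on the interferon lists held it in 15 of 38 promoters (39.5%) and higher genes on none of those lists in 13 of 120 (10.8%). A composite element bound by ATF4, searched as TGATG, any base, AA and any base on either strand, was found in 6 of the 158 higher genes (3.8%), 7 of the 275 lower genes (2.55%) and 2.84% of measured genes with a promoter. Only 158 of 201 higher genes and 13605 of 17097 measured genes had a promoter, under 80% in both cases, so the comparison of shares is void as a check and describes the genes with a promoter only. A match is a run of letters, not a shown binding site.

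Ifit1, which binds foreign RNA lacking the host cap marks, showed the largest rise. Its log2 levels on the knockout arrays were 6.99, 6.67 and 6.45 in liver, 5.34, 5.29 and 5.76 in muscle, 5.44, 5.33 and 6.10 in brain, and 8.09, 7.92 and 7.89 in heart. The wild type arrays gave 4.77, 5.11 and 4.72 in liver, 3.26, 3.18 and 3.24 in muscle, 2.82, 3.07 and 2.80 in brain, and 4.35, 4.29 and 3.67 in heart. Groups were apart in every tissue, and in brain and muscle the wild type levels lay near the array median. The mean difference was 2.66 ± 0.10 (SE, n = 3 per group; limma adjusted p = 3.97e-13), a 6.34-fold rise, composed of 1.83 in liver, 2.23 in muscle, 2.73 in brain and 3.86 in heart.

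Usp18 encodes a protease that strips a ubiquitin-like modifier from proteins and dampens the interferon receptor. Its knockout levels were 6.80, 7.10 and 7.04 in liver, 5.63, 4.86 and 5.43 in muscle, 4.61, 4.79 and 5.20 in brain, and 8.17, 7.70 and 7.93 in heart. Wild type levels were 4.62, 5.36 and 4.88, then 3.40, 3.29 and 3.60, then 2.46, 2.84 and 2.70, and 3.78, 3.87 and 3.97 in the same order of tissues. The heart stood out for Usp18, with a difference of 4.06 against 1.88 to 2.20 in the other three tissues, and the test of a difference between tissues gave an adjusted p of 0.000329. The mean difference was 2.54 ± 0.10 (limma adjusted p = 6.80e-13).

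Irf7 encodes the transcription factor that amplifies type I interferon transcription. Knockout levels were 6.90, 7.14 and 6.99 in liver, 5.14, 5.16 and 5.04 in muscle, 4.08, 4.13 and 4.38 in brain, and 7.16, 6.77 and 7.49 in heart, against wild type levels of 5.90, 5.74 and 5.30, of 3.72, 3.76 and 3.91, of 3.17, 3.21 and 3.41, and of 4.85, 4.34 and 4.34. Every knockout array was above every wild type array of its tissue. The mean difference of Irf7 was 1.56 ± 0.09 (limma adjusted p = 1.84e-10), and the largest of the 4 differences was again in heart, 2.62, with 0.93 in brain as the smallest. Rsad2, the antiviral enzyme viperin, had its largest difference in brain and its smallest in heart: 1.86 in brain, 1.43 in liver, 1.24 in muscle and 1.03 in heart, where its wild type levels of 8.42, 8.36 and 8.37 were already the highest of the 4 tissues. For Rsad2 these differences between tissues did not pass the test (adjusted p = 0.178).

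**Figure D1:**
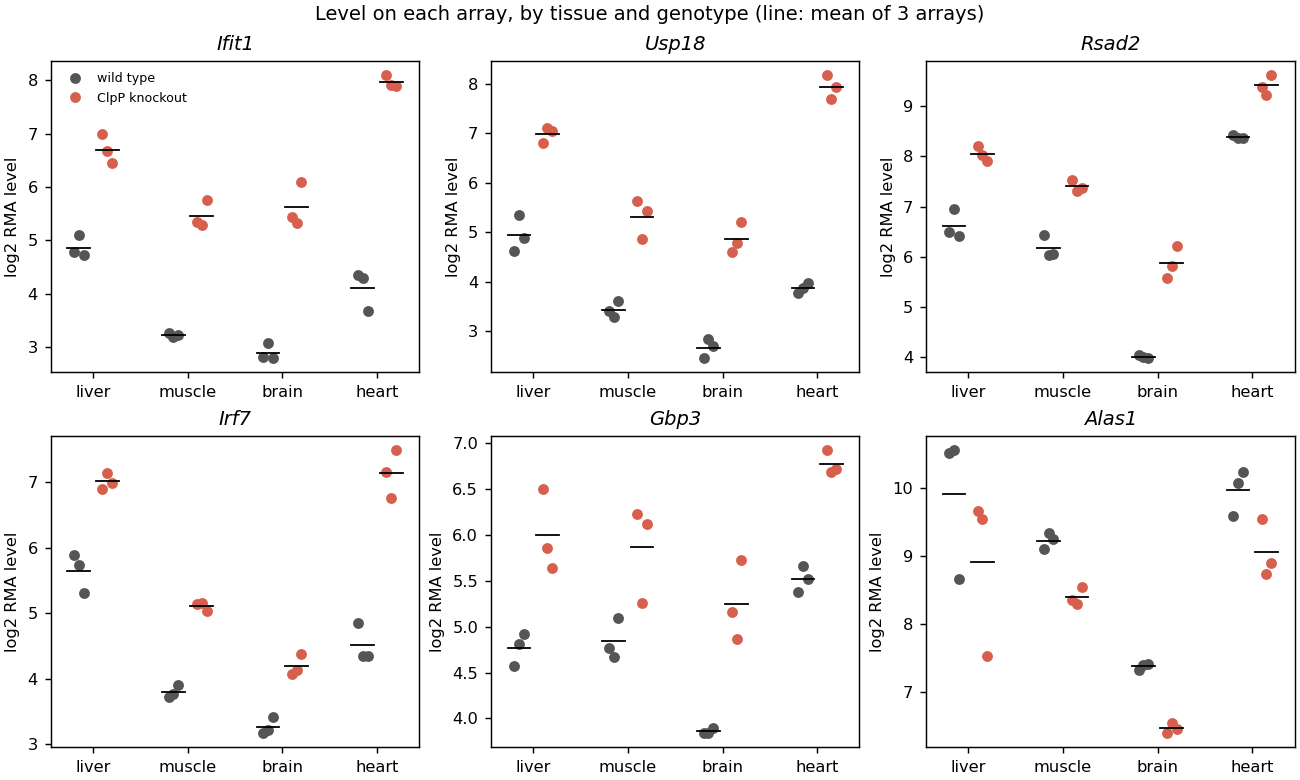
Log2 RMA level (y axis) of 6 genes on each of the 24 arrays, by tissue (x axis); grey points are wild type arrays, red points ClpP knockout arrays, and lines the mean of 3 arrays. The knockout arrays of Ifit1, Usp18, Rsad2, Irf7 and Gbp3 lie above the wild type arrays in all 4 tissues, while those of Alas1 lie below in muscle, brain and heart, and array 3 of both genotypes is low in liver.

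Other rises among the 15 largest, and among the genes called in each tissue, were as follows. Ifit3 rose by 2.20 ± 0.10, Oas1g, an RNA-sensing synthetase, by 1.69 ± 0.09, Rtp4, a chaperone of receptors, by 1.60 ± 0.10, and Lgals3bp, a secreted glycoprotein, by 1.57 ± 0.12. In liver Oas1g had knockout levels of 7.57, 7.56 and 7.50 against 5.29, 5.30 and 5.30, its largest difference, 2.24. Lgals3bp had its smallest difference there, 0.75, with liver the only one of the 4 tissues where it was not called. Xaf1, a proapoptotic protein, rose by 1.09 ± 0.10 and Rnf213, a giant ubiquitin ligase, by 0.89 ± 0.06; Rnf213 ran from 0.65 in muscle to 1.25 in brain. Genes with large rises outside the named set, picked out after their values were seen, were Tnni1 at 1.40, which encodes slow skeletal troponin I and drew most of its mean from muscle (4.70), and Slc15a2, a peptide transporter, at 1.14, which was called in no tissue taken alone.

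**Figure D2:**
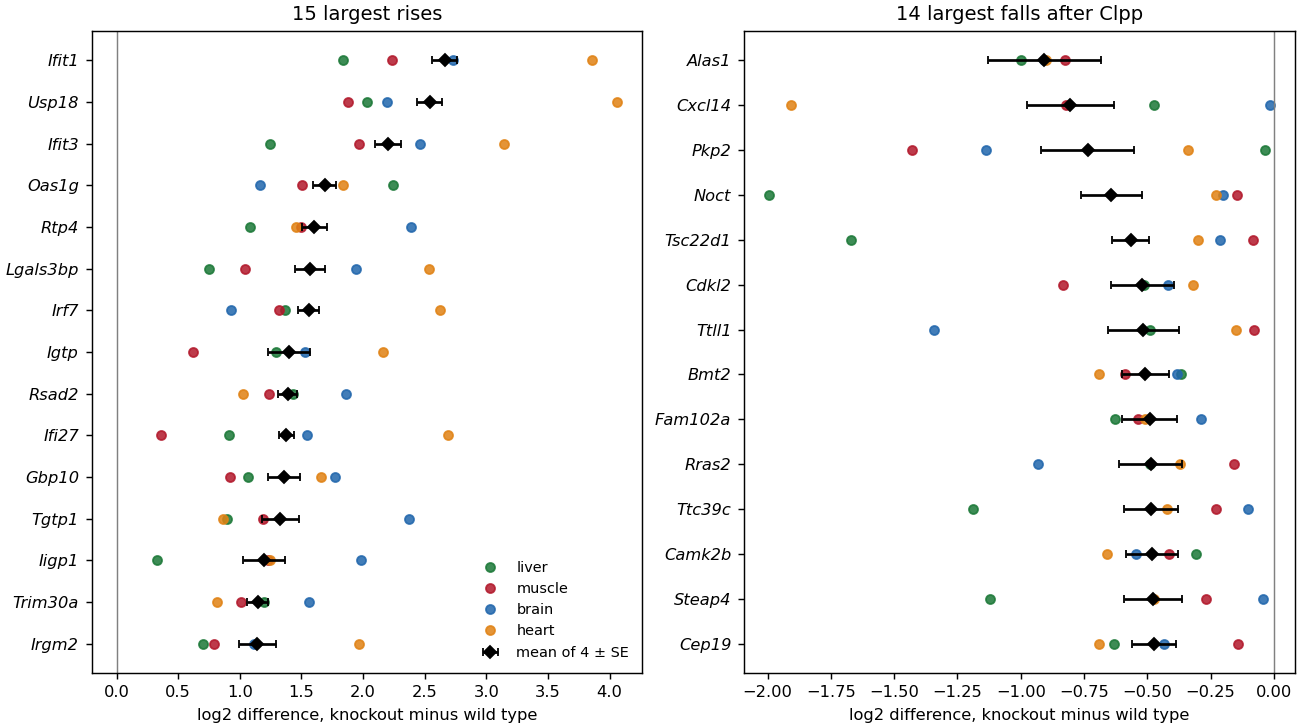
Log2 difference, knockout minus wild type (x axis), of the 15 largest rises and the 14 largest falls after Clpp (y axis) among adequately expressed genes of 1 sign; coloured points are the 4 tissues and black diamonds their mean with its standard error. The rises lie between 1.14 and 2.66 in the mean with every tissue above 0, whereas the falls lie between -0.91 and -0.47, and several, such as Noct and Tsc22d1, are carried mainly by liver.

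The interferon response was described through 4 lists holding 81 measured genes, of which limma called 56 higher and 0 lower in the mean effect, against 1.6% and 2.63% of all genes; at an unadjusted p below 0.05 63 were higher and still 0 lower. Of the 201 higher genes 49 were on these lists; the remaining 152 higher genes stood on none of these lists and were smaller in size, with a median of 0.32 against 0.84. Of the 23 rises of at least 1, 18 were on the lists, and of the 75 rises of at least 0.5, 40 were. The whole 81 genes had a median change of 0.33 in liver, 0.44 in muscle, 0.59 in brain and 0.64 in heart, and 19, 20, 29 and 34 of them were called higher in those tissues, where 0.901%, 0.784%, 0.228% and 1.08% of all genes were. With heart left out of the mean, 41 of the 81 were called higher, against 101 of the 17097 genes tested. These lists, like the others here, were chosen with earlier results of these data known, so their shares are no independent check. Bulk tissue cannot tell more cells of a responding type from more RNA per cell, and that holds for every result here.

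Among classical interferon-stimulated genes, 30 of 39 measured were called higher, 26 of them with 1 sign, and the median was 0.58. The median level of this list on an array was 4.51 to 4.82 on the 3 knockout brain arrays against 3.24 to 3.50 on the wild type ones, 4.94 to 5.34 against 3.73 to 3.94 in muscle, 6.32 to 6.47 against 4.71 to 5.28 in liver, and 7.04 to 7.11 against 4.67 to 5.13 in heart. No array overlapped between genotypes in any tissue, and the heart, which did not lead among wild type arrays, had the highest knockout levels. The 9 listed genes not called were Mx1 (0.19), Oas3 (-0.02), Ifi44l (-0.04), Trim25 (0.22), Eif2ak2 (0.16), Adar (0.38), Sp100 (0.13), Tor3a (0.01) and Ube2l6 (-0.06). Mx1, a dynamin-like antiviral GTPase, is known to be defective in common laboratory strains. Ifi27l2a, an interferon-induced membrane protein, was called at 1.62 ± 0.28 without 1 sign: it rose in brain by 3.34 and was at -0.02 in muscle.

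Of 10 measured interferon-inducible GTPases, which act on vacuoles and membranes, 9 were called higher (8 with 1 sign) and the median was 1.13. Igtp stood at 1.40 ± 0.17, Tgtp1 at 1.33 ± 0.15, Gbp3 at 1.22 ± 0.12, Iigp1 at 1.20 ± 0.17 and Irgm2 at 1.14 ± 0.15, each called higher; Gbp4 (0.09) was not called. Ifi47 was called at 1.12 but had -0.07 in liver. Arrays of one group spread widely for these genes in muscle and heart. On knockout muscle arrays Iigp1 had 9.01, 7.37 and 8.06, and on knockout heart arrays 11.05, 9.41 and 9.97, array 1 being the highest in both tissues; Igtp (7.48, 5.84 and 6.28; 9.68, 8.02 and 8.36) and Irgm2 (7.36, 5.87 and 6.16; 8.77, 7.42 and 7.85) showed the same order. The median level of the GTPase list was 7.42, 6.02 and 6.67 on the muscle knockout arrays and 8.63, 7.80 and 7.93 on the heart ones, while the knockout livers were close together at 7.64, 7.56 and 7.68. In muscle, Igtp overlapped between genotypes. In the 3 against 3 comparison the limma adjusted p was 0.0264 for Igtp, 0.0352 for Iigp1 and 0.0243 for Irgm2. With the 24 arrays taken as independent it was 4.99e-05, 0.000341 and 9.08e-05. The GTPase families hold near-identical members, as do the OAS, Ifi200 and MHC class I families, so a probe set may report more than one of their genes.

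Regulators and sensors responded in part: 9 of 19 were called higher (8 with 1 sign), with a median of 0.23. Beside Irf7 these included Ifih1, which encodes MDA5 (0.86 ± 0.11), Ddx58, which encodes RIG-I (0.69 ± 0.11), Irf9, the DNA-binding part of the interferon-activated STAT complex (0.69 ± 0.08), and Ifi205 (0.70 ± 0.11). Irf9 rose most in heart, where its levels were 6.01, 5.88 and 5.92 against 4.40, 4.30 and 4.70. Other sensors and signalling components were not called: Mavs was at 0.07, the DNA sensor Cgas at 0.01, its adaptor Sting1 at 0.23 and Irf3 at 0.04. A p that misses the threshold does not show that these genes were equal between genotypes.

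In MHC class I presentation 8 of 13 genes were called higher (7 with 1 sign), with a median of 0.42. Nlrc5, the transactivator of these genes, rose by 0.92 ± 0.15, the immunoproteasome subunit Psmb8 by 0.86 ± 0.13, and the class I heavy chains H2-K1 by 0.84 ± 0.05, H2-D1 by 0.69 ± 0.09 and H2-T23 by 0.68 ± 0.09. H2-K1 differed between tissues (adjusted p = 0.000463): levels in brain were 8.59, 8.38 and 8.65 against 7.16, 7.20 and 6.99, whereas in liver, where the wild type levels of 11.91, 11.84 and 11.81 were highest, the knockout arrays reached 12.08, 12.08 and 12.19. Genotypes did not overlap for H2-K1 in any tissue even so. Of the 8 MHC class II genes, which are expressed by specialised immune cells, 0 were called by limma (4 were higher at an unadjusted p below 0.05) and the median was 0.21. C1qa, which encodes a complement subunit of macrophages, was the 1 called of 9 macrophage and microglia markers, at 0.62. At an unadjusted p below 0.05, 5 of the 9 were higher and 0 lower. The median level of those 9 markers was 5.93 to 6.67 on knockout against 5.63 to 5.80 on wild type heart arrays, 5.40 to 5.78 against 4.79 to 5.76 in brain, 4.85 to 5.37 against 4.59 to 5.02 in liver and 4.21 to 4.53 against 4.09 to 4.77 in muscle, so that genotypes were apart only in heart. Markers of T and NK cells and of B cells had 0 calls by limma in 6 and 5 measured genes, with 1 and 2 higher at an unadjusted p below 0.05. The part of macrophage number in the interferon and class I results was not tested.

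**Figure D3:**
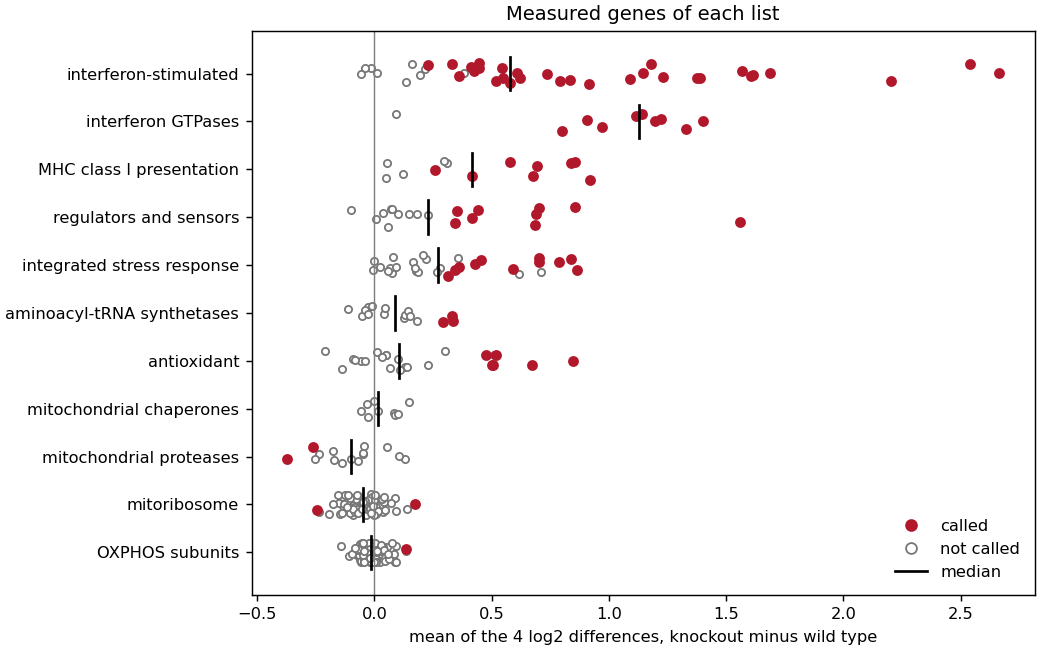
Mean of the 4 log2 differences, knockout minus wild type (x axis), for each measured gene of 11 lists (y axis); red points passed the test, white points did not, and black bars are list medians. The 4 interferon lists reach to 2.66 with medians of 0.23 to 1.13, the stress response list has a median of 0.27, and the mitochondrial lists centre near 0.

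Genes of the integrated stress response were higher in the mean but not evenly. Of its 30 measured genes 11 were called higher (6 with 1 sign) and 0 lower by limma (16 and 0 at an unadjusted p below 0.05), with a median of 0.27, yet the tissue medians were 0.04 in liver, 0.04 in muscle, 0.18 in brain and 0.86 in heart, where 12 were called higher; in liver 1 was. With heart left out of the mean, 0 of the 30 were called higher by limma, against 101 of the 17097 genes tested. In that fit 7 of the 30 were higher at an unadjusted p below 0.05, against 1102 of the 17097. Atf5, a transcription factor of this response, had levels of 8.89, 9.02 and 9.82 in knockout against 6.53, 6.69 and 7.19 in wild type hearts, and a mean change of 0.84 ± 0.11, of which liver gave 0.14, muscle 0.38, brain 0.39 and heart 2.44. Aldh1l2, a mitochondrial folate enzyme, had a heart difference of 2.93 against 0.01 to 0.26 elsewhere, the pseudokinase Trib3 one of 2.22 against 0.07 to 0.41, and the amino acid transporter subunit Slc7a5 one of 2.32 against -0.06 to 0.63. For Atf5, Aldh1l2, Trib3, Slc7a5 and Nupr1 the test of a difference between tissues was passed, with adjusted p from 0.000329 to 0.0296. Asns, the enzyme that makes asparagine, had the widest spread, 4.19 in heart and -1.11 in liver, and its mean of 0.71 was not called. Within the knockout hearts the median level of the list was 5.86, 6.58 and 7.20 on arrays 1, 2 and 3, against 4.75, 4.45 and 4.50 in wild type, so array 1, the highest for the GTPases, was the lowest here.

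The knockout hearts also differed in transcripts known from atrial muscle. Whether this reflects atrial tissue in the sample was not tested. Myl7, the atrial myosin light chain, had levels of 3.59, 12.6 and 12.8 on knockout heart arrays 1, 2 and 3 against 7.42, 3.81 and 2.95 on the wild type ones. Myl4, another atrial light chain, picked after its values were seen, had 3.34, 12.4 and 12.5 against 7.75, 4.49 and 4.36, and Nppa, the atrial natriuretic peptide, 9.30, 13.06 and 13.14 against 9.64, 10.79 and 11.06. Knockout arrays 2 and 3 thus carried atrial transcripts far above every other heart array, and knockout array 1 did not. With arrays 2 and 3 left out, a choice made after seeing the data that rests the heart on 1 knockout array assumed to vary like the other groups, 144 genes were called in heart. The heart medians were then 0.74 for the 81 interferon genes and 0.55 for the stress response genes. The heart differences of Ifit1 (3.99), Usp18 (4.30) and Irf7 (2.64) were as large as with all arrays, while that of Atf5 was 2.09, that of Aldh1l2 2.37 and that of Trib3 1.23. The means of the 4 tissues were then 2.70 for Ifit1, 2.60 for Usp18 and 1.56 for Irf7. They were 0.75 for Atf5, 0.72 for Aldh1l2 and 0.45 for Trib3, against 0.84, 0.86 and 0.70 with all arrays. The difference between tissues was still called for Ifit1, Usp18, Irf7, Ifi27 and Atf5 (adjusted p from 0.000114 to 0.0187) but not for Irf9 (0.0971), Aldh1l2 (0.119), Trib3 (0.0838) and Slc7a5 (0.117).

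**Figure D4:**
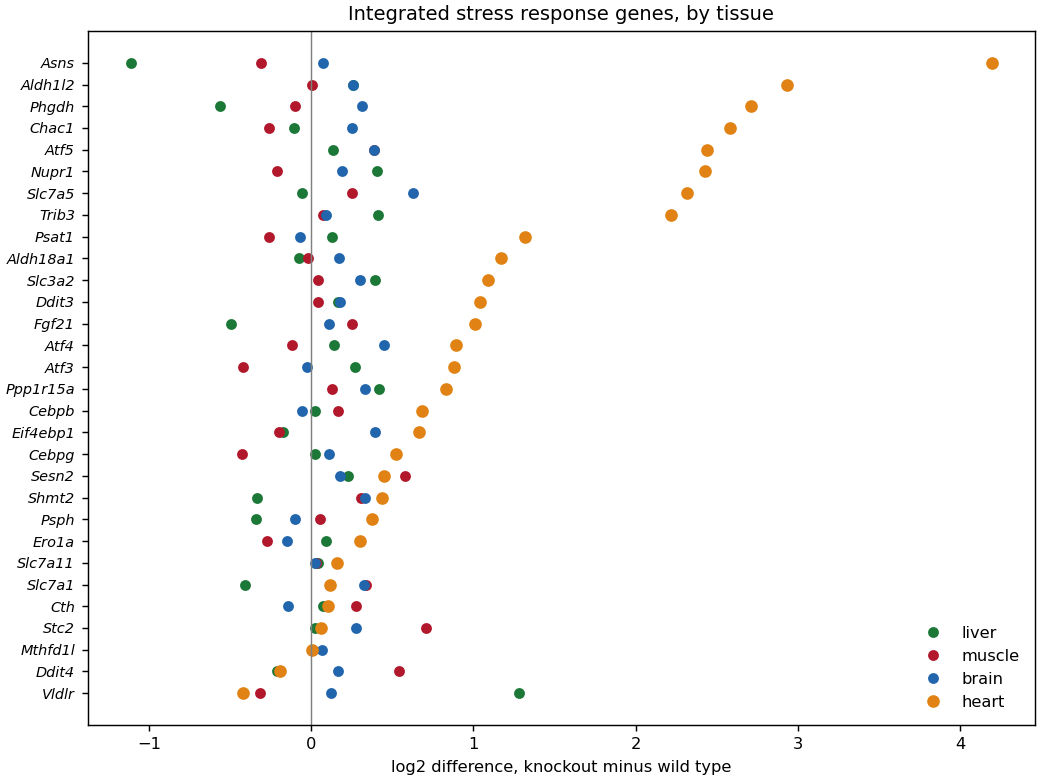
Log2 difference, knockout minus wild type (x axis), of the 30 measured integrated stress response genes (y axis, ordered by heart), with 1 point per tissue. Heart reaches 4.19 at Asns and 2.93 at Aldh1l2, while most points of liver, muscle and brain lie near 0.

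Among enzymes that charge tRNAs, 3 of 16 cytosolic aminoacyl-tRNA synthetases were called higher, Yars at 0.34 ± 0.05, Sars at 0.33 ± 0.06 and Aars at 0.29 ± 0.05. Each was called in heart and in no other tissue, and for Sars and Aars the difference between tissues passed the test (adjusted p = 0.0157 and 0.0146). Antioxidant and Nrf2 targets had 6 of 24 called higher, 4 with 1 sign, with a median of 0.11. Gclm, a subunit of the glutathione-making enzyme, rose by 0.51 ± 0.09, with 0.44 in liver, 0.13 in muscle, 0.48 in brain and 0.97 in heart. Gsta2, a glutathione transferase, rose in liver by 1.57 and in heart by 1.68, with levels near the array median in brain and muscle, and its relative Gstm3 rose in liver alone, from 7.70, 8.44 and 7.59 to 9.94, 9.63 and 9.71 (adjusted p for a difference between tissues = 0.000317). Hmox1, which breaks down heme, had a mean of 0.67 ± 0.18 to which liver knockout array 3 contributed a level of 7.11 against 5.29 and 4.79 on the other two.

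The mitochondrial machinery that surrounds ClpP showed small differences. Of 9 mitochondrial chaperones 0 were called by limma (1 was higher at an unadjusted p below 0.05), with a median of 0.02 and a range of -0.06 to 0.15. Of 15 mitochondrial proteases and processing enzymes 2 were called lower: Yme1l1, the inner membrane protease facing the intermembrane space, at -0.26 ± 0.07, and Atp23, a processing protease, at -0.37 ± 0.09. Among 73 mitoribosome subunits Mrpl52 was called higher (0.17 ± 0.04) and Mrpl36 lower (-0.25 ± 0.07, not of 1 sign). Other probe sets of Mrpl52 gave only 0.057, 0.032 and 0.079, at mean levels of 7.62, 7.93 and 2.74. Among 24 genes of mitoribosome assembly and translation Noa1 (-0.28 ± 0.06) and the tRNA-modifying Mto1 (-0.21 ± 0.06, not of 1 sign) fell. In the oxidative phosphorylation list Atp5g2, a subunit of the ATP synthase ring, was the 1 of 73 called, at 0.14 ± 0.04, and among 28 assembly factors Ttc19, of complex III, fell by 0.39 ± 0.08 and Nubpl, of complex I, by 0.28 ± 0.08, the latter not with 1 sign.

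Other mitochondrial falls were of similar size. In the mitochondrial DNA list Tefm, the elongation factor of mitochondrial transcription, fell by 0.29 ± 0.07 and Tfb2m, its initiation factor, by 0.20 ± 0.05, as 2 of 15. Opa1, which fuses inner membranes, fell by 0.20 ± 0.05 as the 1 called of 15 dynamics genes, and Sucla2, a subunit of the ligase that makes succinate, by 0.24 ± 0.07 as the 1 of 20 in the tricarboxylic acid cycle. Without the pair of knockout hearts with atrial transcripts the calls of Yme1l1, Atp23, Mrpl36, Atp5g2, Ttc19, Nubpl, Tfb2m, Opa1 and Sucla2 were lost, at adjusted p from 0.0535 to 0.139. Their mean changes kept between 66.7% (Mrpl36) and 112% (Atp5g2) of their size, with 70.6% for Atp23 and at least 85.2% for the others. That of Mrpl36 went from -0.246 to -0.164 and that of Atp23 from -0.371 to -0.262. Why these calls were lost was not tested. Of all genes 2.63% were called lower. The share was above this for proteases and mitochondrial DNA (2 of 15 each), assembly and translation (2 of 24) and oxidative phosphorylation assembly (2 of 28). Dynamics (1 of 15) and the tricarboxylic acid cycle (1 of 20) rested on 1 gene each, too few to set against a share. Among the 8400 genes with a group mean of at least 6, 355 were called lower. Mitoribosome subunits (1 of 73), oxidative phosphorylation subunits (0 of 73) and chaperones (0 of 9) were below the 2.63% of all genes. At an unadjusted p below 0.05, 9 of the 15 mitochondrial DNA genes, 6 of the 15 proteases, 7 of the 24 assembly and translation genes and 7 of the 28 oxidative phosphorylation assembly factors were lower, against 1891 of the 17097 genes tested, and list medians ran from -0.17 for the mitochondrial DNA list to 0.02 for the chaperones. With limma, 0 genes were called in the lists of fatty acid oxidation (17 measured), PPAR targets (15), cholesterol synthesis (17), endoplasmic reticulum chaperones (17), cytosolic heat shock (12), extracellular matrix (19), immediate early genes (20) and metallothioneins with glucocorticoid targets (12); of these 129 genes together 4 were higher and 7 lower at an unadjusted p below 0.05. Of 67 cytosolic ribosome genes Rpl12 (0.25) and Rpsa (0.20, not of 1 sign) were called higher, and Igfbp5 (0.40) was called higher in the growth factor list. Tef (-0.38) was called lower among 17 clock genes, and Ccng1 (-0.32) and Eda2r (-0.38) were called lower among 14 p53 targets, neither of these p53 targets with 1 sign.

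Apart from Clpp the largest fall of 1 sign was that of Alas1, the first and rate-limiting enzyme of heme synthesis, which works in the mitochondrial matrix. Its knockout levels were 9.65, 9.53 and 7.54 in liver, 8.36, 8.29 and 8.54 in muscle, 6.41, 6.55 and 6.47 in brain, and 9.54, 8.74 and 8.89 in heart. Wild type levels were 10.51, 10.54 and 8.66 in liver, 9.09, 9.33 and 9.25 in muscle, 7.33, 7.40 and 7.42 in brain, and 9.58, 10.07 and 10.22 in heart. Genotypes were apart in muscle, brain and heart and overlapped in liver, where array 3 of both genotypes was low. The 4 differences of Alas1 were nearly alike, -0.997, -0.82, -0.91 and -0.90, and their mean was -0.91 ± 0.22 (limma adjusted p = 0.0258), although no tissue alone passed. The call of Alas1 was lost in 5 of 44 alternatives: in the 3 against 3 comparison (limma adjusted p = 0.0759) and when muscle, brain or heart was left out of the mean (0.0980, 0.101 and 0.116), and without the pair of knockout hearts with atrial transcripts (0.0977). Its mean was then -0.93, -0.91, -0.91 and -0.79 for these last 4. Fewer arrays entered these fits. In testis Alas1 was lower by 0.62 as well (adjusted p = 0.0170). On the heme and iron list of 14 genes the only other call was Ftl1, the ferritin light chain, which rose by 0.32 ± 0.07.

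Among the other large falls, the difference between tissues passed the test for Tsc22d1 and Noct. Tsc22d1, a leucine zipper regulator, fell by 0.57 ± 0.07, of which liver gave -1.67 (8.57, 7.96 and 7.77 against 9.81, 9.79 and 9.71) and the other three tissues -0.08 to -0.30; the tissues differed (adjusted p = 0.000329). Noct, a rhythmically expressed phosphatase, fell by 0.64 ± 0.12, with -1.99 in liver and -0.14 to -0.23 elsewhere, where genotypes overlapped. Cxcl14, a chemokine, had -1.91 in heart and -0.02 in brain. For Cxcl14, Ttc39c, Steap4 and Ttll1 the difference between tissues was not called (adjusted p from 0.153 to 0.244). Ttc39c, Steap4, a metalloreductase, and Ttll1, a tubulin glutamylase, were each called in 1 tissue, with liver differences of -1.19 and -1.12 for the first and second and a brain difference of -1.34 for Ttll1. Bmt2, a methyltransferase, ran from -0.37 to -0.69, Camk2b, a kinase subunit of neurons and muscle, from -0.31 to -0.66, and Cdkl2 from -0.32 to -0.83, none of them called in a single tissue. Cep19, a ciliary protein, fell by 0.47 ± 0.09, and Rras2, a small GTPase, by 0.49 ± 0.13 with -0.93 in brain. Pkp2, a desmosome protein (-0.74 ± 0.18), and Fam102a (-0.49 ± 0.11) came from probe sets that can match several transcripts: with such probe sets left out, the remaining one of Fam102a gave 0.0046. That of Pkp2 gave 0.049 at a mean level of 2.73. This is below the median probe set of an array, so it does not bear on the fall of Pkp2. The probe set of Ttll1 can match several transcripts too. Its other probe sets gave -0.29 at a mean level of 3.82 and 0.075 at a mean level of 2.99. Other probe sets existed for 87 of the 201 higher genes, and 107 of these 139 had the same sign of the mean. For the lower genes it was 278 of 362, from 205 genes. Fewer, 44 of the 139 and 109 of the 362, had that sign in all 4 tissues. At an unadjusted limma p below 0.05, 3 and 8 had the opposite sign of the mean. Wild type array 3 of brain carried a level of 5.46 for Pkp2 against 3.37 and 3.42 on the other two.

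Of the 12 falls that did not overlap in any tissue Clpp was the only one past 1, and examples picked after their values were seen are Parg, which removes poly(ADP-ribose), at -0.39, Usp9x, a deubiquitinase, at -0.31 and Rybp, a Polycomb partner, at -0.32. Of the 340 lower genes 216 were called in no single tissue and 7 in at least 2, while of the 201 higher genes 83 were called in no single tissue and 37 in at least 2. The largest of the 4 changes fell in liver for 138 lower genes, in heart for 97, in muscle for 76 and in brain for 29; among the higher genes it fell in heart for 88, in liver for 43, in muscle for 39 and in brain for 31. In the 3 against 3 comparison 58 of the 541 genes were still called, 50 higher and 8 lower. The higher ones included Ifit1, Usp18, Irf7, Igtp, H2-K1, Atf5 and Tnni1, and the 8 lower ones were Clpp, Fmr1, Gm10336, Marchf8, Rai2, Rnf138, Steap4 and Tsc22d1, named because they are few; Alas1 was not among them.

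Where a mean hides unequal tissues was asked with an F test of the difference between the 4 effects, which called 244 genes (1.43%), among them 34 of the 541. Without heart knockout array 1 the count was 579. The smallest p-values were of Ifi27, Serpina12, C730036E19Rik, Dio1 and Crygn. Ifi27, an interferon-stimulated gene, was higher in all 4 tissues but by 2.69 in heart (10.78, 10.76 and 10.77 against 7.99, 8.08 and 8.16) and by 0.36 in muscle. The others belonged to liver. Serpina12, the adipokine vaspin, fell there by 3.31, from 9.50, 9.84 and 10.53 to 6.77, 7.01 and 6.18, and was near the array median in the other three tissues; Dio1, the liver deiodinase that activates thyroid hormone, fell there by 1.71. Their mean effects of -0.74 and -0.40 were called without standing for more than liver, and without liver they were 0.12 and 0.04. Tnnc1, troponin C of heart and slow muscle, was called at 1.25 from muscle alone (4.74), where wild type arrays spread over 5.74, 3.91 and 8.10 and knockout arrays gave 10.87, 10.45 and 10.65; in heart its difference was -0.01.

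The share of the pattern that reaches a tissue which took no part in choosing the genes was then measured. Genes of 1 sign called in the mean of 3 tissues were followed into the tissue left out, fitted on its own 6 arrays and with Clpp set aside. Of genes higher in the other 3 tissues, 116 of 156 (74.4%) were higher in liver, 122 of 161 (75.8%) in muscle, 128 of 159 (80.5%) in brain and 75 of 86 (87.2%) in heart, where 49.8%, 49.5%, 54.1% and 47.4% of all genes were higher. Of genes lower in the other 3, 73.5%, 70.7%, 72.8% and 83.3% were lower in liver, muscle, brain and heart, against 50.2%, 50.5%, 45.9% and 52.6% of all genes. Both directions were thus followed more often than by all genes in each of the 4 tissues, while the calls differed between directions. All genes were not matched for level. The 340 lower genes had a median level of 6.35, against 4.35 over all genes. Of the 8400 genes with a group mean of at least 6, 1164 were lower and 554 higher in all 4 tissues. The part of level in the lower direction was not tested.

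With 6 arrays alone, limma called 11 of the 156 genes higher in liver (7.05%, against 0.0877% of all genes), 6 in muscle (3.73% against 0.0643%), 19 in brain (11.9% against 0.135%) and 25 in heart (29.1% against 0.252%). Ifit1, Ifit3, Usp18 and Rsad2 were among these in every tissue. For the lower genes limma called 0 in each of the 4 tissues; at an unadjusted p below 0.05 there were 32 (16.3%, against 5.87% of all genes) in liver, 35 (15.6% against 6.79%) in muscle, 42 (14.6% against 3.74%) in brain and 22 (24.4% against 8.36%) in heart. When the tissue left out was taken from the fit of all 24 arrays, 29, 26, 29 and 38 higher genes and 8, 5, 0 and 4 lower genes were called alike in the order liver, muscle, brain and heart.

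**Figure D5:**
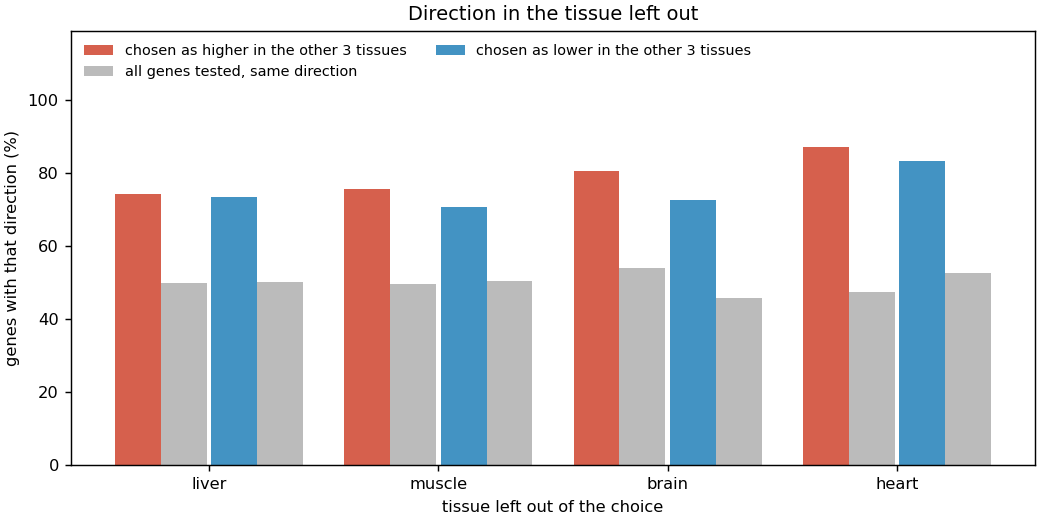
Percent of genes with the stated direction (y axis, from 0) in the tissue left out of the choice (x axis); red bars are genes called higher and blue bars genes called lower in the mean of the other 3 tissues, and each grey bar gives all genes tested in that direction. The coloured bars lie between 70.7% and 87.2% and the grey ones between 45.9% and 54.1%.

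The same genes were then followed in testis, which the choice did not use. Fitted alone, 9316 genes (54.5%) were called there, 32.2% higher and 22.3% lower, and markers of sperm fell from between 12.9 and 13.2 on wild type arrays to between 9.07 and 10.0 on knockout arrays, so its cell makeup and the knockout cannot be told apart. Of the 201 higher genes 89 (44.3%) were called higher and 29 (14.4%) lower in testis, and of the 340 lower genes 212 (62.4%) were called higher and 59 (17.4%) lower. Among the 5212 genes with a mean level of at least 6, 61.7% were called higher and 15.1% lower in testis. The lower genes, with a median level of 6.35, were near these shares, so their testis calls are no trait of their own. Among the 8400 genes with a group mean of at least 6, 4311 were called higher and 1436 lower. Ifit1, with 0.12, Oas1g, with 0.11, and Irf7, with 0.08, were not called in testis, although Usp18 (0.97), Rsad2 (0.80), Xaf1 (1.79), Gbp3 (1.60) and H2-K1 (1.80) were called higher there. Epsti1, picked out after its values were seen, was called higher in the mean of the 4 somatic tissues at 0.23 and fell in testis by 3.003. The median level of 3 epididymis markers reached 10.7 on a wild type testis array, against 2.82 on the lowest. Knockout testis arrays had at most 2.67. The part of epididymis transcripts in the testis differences was not tested. Across the 81 genes of the interferon lists 41 were called higher and 6 lower in testis.

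Genes on the chromosome of Clpp deserve a separate count, since a knockout line can carry flanking sequence in every tissue. Of 132 genes within 10 Mb of Clpp 5 were called (3.79%), against 4.23% of all other genes, namely Adgre4, Khsrp, Ticam1, Tubb4a and Zfp119a, named because they are few. Within 5 Mb the same 5 stood among 73 genes (6.85%), and within 20 Mb 12 of 248 were called (4.84%). Gm9706, a gene called in each of the 4 tissues, was among these 12 and lay outside the 10 Mb window.

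The tissue labels held: hepatocyte markers had a median level of at least 13.2 in liver, skeletal muscle and neuron markers were high in their own tissues, and the heart troponin Tnni3 was at 12.8 or more on every heart array. Contents of other cell types moved across groups. Fat cell markers (Adipoq and Lep, the 2 measured) ran from 2.49 to 5.88 on knockout and from 2.50 to 2.78 on wild type heart arrays, and from 2.80 to 6.20 on knockout against 6.19 to 6.79 on wild type muscle arrays; hepatocyte markers reached 4.91 on a knockout heart and 4.76 on a knockout muscle array, with wild type arrays of these tissues at 3.33 or less. Muscle wild type array 1 carried sperm markers at 7.18, against at most 2.83 on other somatic arrays, and without it and liver knockout array 1 together 257 genes were called lower. The excess of the 3′ over the 5′ probe set of Gapdh, a sign of RNA quality, was 1.17 ± 0.43 (SD, n = 3) in knockout and 0.91 ± 0.13 in wild type livers and 0.26 to 0.35 in the groups of the other three tissues. Without that pair of arrays, 320 of the 541 genes were still called, 142 higher and 178 lower. With the Gapdh measure as a covariate 391 were, 160 higher and 231 lower. In both fits 9 of the 10 GTPases were called higher. The part of these contents and of RNA quality in any of the results was not tested.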

How the data were processed

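Affymetrix arrays were hybridised with biotin-labelled cRNA, and the authors deposited log2 values made with RMA in R 2.14.0, per the submitters' processing notes; RMA corrects background, quantile-normalizes and summarises probes, and compresses large changes. Groups came from the labels. Array precision is limited by 3 arrays per group. Probe sets with 1 gene symbol in the platform annotation (28898 of 45141) were reduced to 17097 genes by the highest mean over all arrays. Names are RefSeq symbols found by gene identifier, which matched 16936 genes. The platform symbol was kept where there was no match or where genes would have shared a name. Limma 3.58.1 in R 4.3.3 fitted 24 arrays with 8 group means; the mean of 4 differences was tested two-sided with Benjamini-Hochberg adjustment at 0.05, and the fit was tested on simulated data. Fold changes are on the log2 scale unless called fold. The fit treats arrays of different tissues as independent. Named genes were the 15 largest rises and 15 largest falls of 1 sign with a level of at least 6 in 2 or more tissues (Riken and predicted names left out: 1 higher, 7 lower), genes called in each tissue, up to 5 called genes per list, the 5 smallest p for a difference between tissues and the 3 largest without 1 sign. Members and lists were chosen with earlier results of these data known. No labels name a batch. Alternatives are given in the closing section.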

Additional observations from a re-analysis of the deposited data

Results flagged for a closer look

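For 24 of the named genes the 4 tissues differed in their effect by limma's F test. Among the interferon genes the adjusted p was 0.00171 for Ifit1, 0.000329 for Usp18, 0.00568 for Ifit3, 0.0172 for Lgals3bp, 0.00218 for Irf7, 1.05e-06 for Ifi27, 0.000463 for H2-K1 and 0.0146 for Irf9. Heart had the largest of the 4 differences for these genes except H2-K1, which was led by brain. Among stress response genes and tRNA synthetases, all led by heart, it was 0.0032 for Aldh1l2, 0.000329 for Atf5, 0.00717 for Slc7a5, 0.00507 for Nupr1, 0.0296 for Trib3, 0.0157 for Sars and 0.0146 for Aars. Genes led by liver were Noct (0.00725), Tsc22d1 (0.000329), Serpina12 (1.05e-06), C730036E19Rik (1.25e-06), Dio1 (4.97e-06), Crygn (6.37e-05) and Gstm3 (0.000317), and those led by muscle were Tnnc1 (0.00286) and Eda2r (0.0352).

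Probe sets without a gene symbol, which entered none of the gene counts, also carried signal: 81 were called higher and 94 lower with 1 sign in all 4 tissues, of 15588 tested, and 2 were called in each tissue.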

How the results depend on the processing

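For the 83 named genes 3099 of their values under alternatives stayed on the same side of the threshold, 531 lost the call, 2 gained one and 5 turned sign: without probe sets that can match several transcripts Pkp2 was at 0.049 (a probe set below the array median, so not a turn of that fall) and Fam102a at 0.0046, and without liver Serpina12 was at 0.12, Dio1 at 0.038 and Crygn at 0.20. The 12 genes higher in each tissue kept their call in the mean effect in all 527 values; the count called in each tissue ran from 10 to 16. With the replicate number as a block, genes of 1 sign called higher came to 133, muscle calls to 128, brain calls to 39 and differences between tissues to 155, and the adjusted p of Alas1 to 0.000508; same-numbered arrays correlated at -0.11 to 0.34, not every pair above 0.1, so the numbers were not taken as pairs. The 3 against 3 comparison called 55 higher and 14 lower. Array weights gave 461 higher, 693 lower, 313 higher of 1 sign, 166 in brain, 1039 in heart and 664 differing between tissues. Quantile normalization gave 230 lower and 157 lower of 1 sign; median centring gave 282 higher and 331 lower. Without liver 178 were higher, 219 lower and 197 lower of 1 sign; without muscle 274 and 226 were lower; without heart 101 were higher and 106 lower, 86 and 91 of 1 sign. Tissues fitted alone called 31 in liver, 15 in muscle, 25 in brain and 83 in heart. Without the pair muscle wild type 1 (sperm markers) and liver knockout 1 (largest 3′ excess), chosen after seeing the data, 257 were lower, 189 lower of 1 sign, 263 in liver and 146 in muscle. Without the pair heart knockout 2 and 3 (atrial transcripts), also chosen after seeing the data, 144 were called in heart and 162 differed between tissues. Taking the tissue left out from the 24-array fit gave 29 higher and 8 lower in liver, 26 and 5 in muscle, 29 higher in brain and 38 and 4 in heart. The 20 Mb window around Clpp held 12 calls. Leaving out each array in turn gave 181 to 409 higher, 264 to 478 lower, 135 to 248 higher and 211 to 366 lower of 1 sign, 277 to 461 in liver, 111 to 299 in muscle (the lowest without knockout array 1; 155, 132, 151 and 157 without knockout 2, knockout 3, wild type 1 and wild type 3), 33 to 118 in brain (without knockout 3 and wild type 1), 185 to 836 in heart (836 without knockout 1, and 185, 206, 224, 195 and 204 without knockout 2, knockout 3, wild type 1, wild type 2 and wild type 3), 10 to 14 in each tissue and 163 to 579 differing between tissues. The cause was not tested, except that leaving out tissues or fitting them alone uses fewer arrays.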
